A study of Mus musculus with 19 samples.

Results

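The module of DNA replication and nucleotide synthesis comprised 40 mouse genes, chosen by name for their function. A gene was followed through the probe sets that carry its symbol. Of the 40 genes, 39 had a probe set, out of 8251 genes with a probe set of their own on the array. They held 53 probe sets, of which 51 named 1 gene only. The remaining 2 belong to Tyms and also carry the symbol of a Tyms pseudogene, so they were kept apart from the counts. Pole had no probe set. A filter on low signal, set at 26.1 signal units on the mean of all arrays, left 35 genes to be tested, and Mcm6, Orc1 and Fen1 lay under it. A gene with several probe sets was counted by the brightest.

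Before a cell divides, its DNA is copied once from many origins. The origin recognition complex, Cdc6 and Cdt1 load the ring of MCM proteins on DNA, and Cdc45 helps turn this ring into the active helicase. DNA polymerase alpha with primase starts each strand, replication factor C loads the sliding clamp PCNA, and DNA polymerase delta extends the strand on that clamp. Ribonucleotide reductase, thymidylate synthase and thymidine kinase supply the building blocks. Resting CD8 T cells hold many of these transcripts low and raise them when they enter the cycle. Transferred T cells divide in hosts that lack lymphocytes, a response called homeostatic proliferation, and later persist as memory-like cells.

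All arrays held RNA of transferred cells sorted from lymph node and spleen of B6 hosts, a standard inbred mouse strain. The labels name the cells as OT-I CD8 T cells, which carry 1 transgenic receptor for an ovalbumin peptide, except for day-5 arrays 1 and 2, whose cell type is not named. The reference group came from hosts that had not been irradiated, sorted at day 6 (n = 4). The other groups came from irradiated hosts and are titled day 5 (n = 8), day 40 (n = 4) and day 115 (n = 3). The descriptions of the group titled day 5 give day 6 as the day of sorting. Unirradiated hosts were sampled at neither day 40 nor day 115, so the effects of host and of time cannot be told apart there. The labels give neither dose of irradiation nor age or sex, and they do not say whether arrays came from separate animals. The p-values therefore measure the spread between these arrays, which may be technical.

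The arrays had medians between 49.6 and 53.7 signal units and formed 2 clusters by their correlation with each other, which did not follow the groups. The first 3 arrays of day 5, the first 2 of day 40 and the 3 of day 115 made up array cluster 1. The other 11 arrays, with the 4 of the unirradiated hosts, made up array cluster 2. The clusters were found from the values themselves, and the labels name no batch. Tests were therefore run in a fit on the groups alone and in a fit with the array cluster as an added term. No cluster held both day-115 and unirradiated arrays, so that comparison has no value within a cluster. Of 7 listed CD8 T cell identity genes, 6 had a probe set, and their summed signal was 8000 to 9140 in unirradiated hosts, 8060 to 13400 at day 5, 7590 to 12800 at day 40 and 8440 to 10200 at day 115. Of 9 B cell markers, 8 had a probe set, and none was at 0. Their sum was 967 to 1060 in unirradiated hosts, 1160 to 2310 at day 5, 1380 to 2630 at day 40 and 2230 to 2870 at day 115. Ighm made up much of it, with 455 to 545 in unirradiated hosts and 1606 to 2241 at day 115. Between the same groups Cd79b went from 75.0 to 109 up to 135 to 270, and Cd79a from 124 to 151 up to 147 to 168. Erythroid markers, 4 of 9 with a probe set, summed to 219 to 300, 249 to 2520, 371 to 1020 and 471 to 1280 in the same order.

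Promoters of the module were searched for the letters bound by E2F factors, which drive many genes at the start of DNA synthesis. The RefSeq promoter table (build GRCm38.p6) matched 35 of the 40 genes, and 250 bases upstream of each start were read on both strands for TTTCCCGC, TTTCGCGC, TTTGCCGC and TTTGGCGC. At least 1 match stood in 6 of 35 genes (17.1%), against 583 of 27025 genes of the table (2.16%). The letters CCAAT stood in 23 of 35 (65.7%), against 37.5% of all genes. A match describes letters only, and neighbouring matches can overlap, as they do in Mcm5 and Mcm6. The stretches of the 6 genes follow on the strand of the gene, with the E2F letters in capitals (read forward or as their reverse complement), since Cdc6, Mcm5, Mcm7 and Pola1 return in the results.
Cdc6, chr11:98907953-98908080, plus strand: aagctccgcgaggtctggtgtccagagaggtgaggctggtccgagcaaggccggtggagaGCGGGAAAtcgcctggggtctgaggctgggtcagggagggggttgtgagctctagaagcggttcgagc
Mcm5, chr8:75109296-75109427, plus strand: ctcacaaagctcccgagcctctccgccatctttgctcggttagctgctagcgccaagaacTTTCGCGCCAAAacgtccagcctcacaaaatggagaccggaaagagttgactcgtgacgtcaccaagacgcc
Mcm6, chr1:128359706-128359875, minus strand: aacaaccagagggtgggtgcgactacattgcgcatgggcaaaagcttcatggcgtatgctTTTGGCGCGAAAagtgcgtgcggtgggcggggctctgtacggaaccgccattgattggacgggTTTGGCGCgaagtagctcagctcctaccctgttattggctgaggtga
Mcm7, chr5:138171981-138172108, minus strand: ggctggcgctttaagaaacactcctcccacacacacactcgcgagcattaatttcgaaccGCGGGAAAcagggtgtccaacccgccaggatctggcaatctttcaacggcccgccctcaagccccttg
Orc1, chr4:108579367-108579453, plus strand: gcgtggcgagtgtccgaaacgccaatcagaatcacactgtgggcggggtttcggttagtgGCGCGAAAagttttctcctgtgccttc
Pola1, chrX:93632226-93632353, minus strand: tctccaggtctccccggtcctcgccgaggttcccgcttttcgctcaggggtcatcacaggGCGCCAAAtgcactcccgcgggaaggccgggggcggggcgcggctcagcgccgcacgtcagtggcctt
The match lay 138 bases before the start in both Cdc6 and Pola1, 165 in Mcm7 and 27 in Orc1. The matches in Mcm5 and Mcm6 stood closest to the start at 149 and 47 bases.

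At day 5 in irradiated hosts, most of the module stood above unirradiated hosts in the fitted difference, and few genes passed the test. The differences of Pclaf, the clamp-associated factor, Mcm5, Rrm2 and Cdc6 were 1.75, 1.14, 1.12 and 1.08 on the log2 scale, and none of these 4 passed on groups alone. The difference was positive for 33 of the 35 tested genes, and their median log2 difference was 0.43, against 0.03 over all 8695 tested probe sets. Only Cdc45 rose past the threshold (limma, adjusted p under 0.05) in the fit on groups alone, where 0.414% of all probe sets rose and 0.38% fell. With the array cluster as a term, 6 of 35 rose (Cdc45, Cdc6, Gmnn, Lig1, Pclaf and Pold2) and none fell, against 0.978% and 0.61% of all probe sets. The 6 are 17.1% of the module, and its median was then 0.37. Without day-5 array 4 that fit called 4 of the 6 (Cdc6, Gmnn, Lig1 and Pclaf), while Pold2 and Cdc45 had adjusted p-values of 0.0504 and 0.0548. On groups alone, leaving out 1 array at a time gave 0 genes without day-5 array 1 or 5 or any unirradiated array, 2 without day-5 array 2, 4 or 8, and 5 without day-5 array 7. At an unadjusted p under 0.05, 17 genes were higher in the first fit and 23 in the second, and none was lower in either. The share of all probe sets at that unadjusted threshold was not counted. Values were compared on the log2(signal + 16) scale, which understates the change of dim genes. In bulk RNA, fewer dividing cells and less RNA per cell cannot be told apart.

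**Figure D1:**
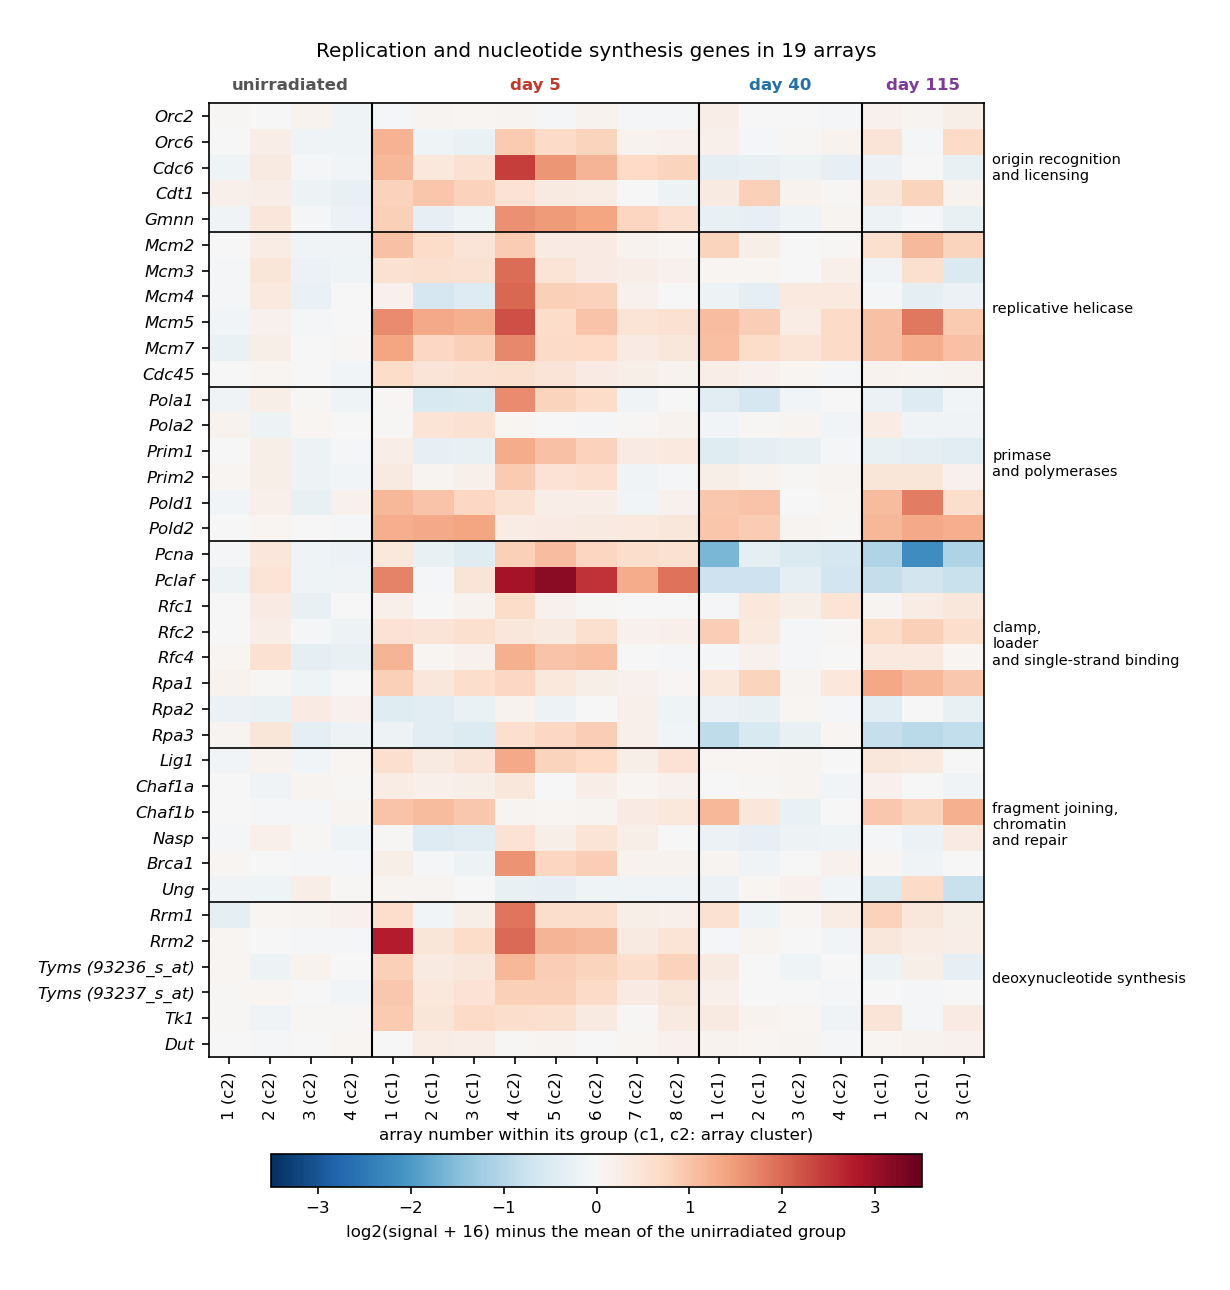
Signal of the 35 tested genes and of both Tyms probe sets in each of the 19 arrays, as log2(signal + 16) minus the mean of the 4 unirradiated arrays. Rows are ordered by role and columns by group, with the array cluster in brackets. Day-5 array 4 is the reddest column, and the Pclaf row runs from red at day 5 to blue at day 40 and day 115.

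The 8 day-5 arrays differed widely among themselves. The median of the 35 genes stood 0.82 above the unirradiated mean in array 4, 0.60 in array 1, 0.56 in array 6 and 0.51 in array 5, on the log2 scale. In arrays 3, 2, 7 and 8 it stood at 0.24, 0.18, 0.16 and 0.14. Unirradiated array 2 reached 0.18, and the other 3 unirradiated arrays lay between -0.07 and -0.02. So day-5 arrays 7 and 8 lay inside the unirradiated range in this median. Array 2 lay at its upper edge (0.184 against 0.182), and array 3 lay above it. Array 4 was the highest of all 19 arrays for 16 of the 35 genes. The share of all probe sets that were highest in array 4 was not counted. The erythroid sum was 404 in array 4, 345 in array 1, 249 in array 6 and 301 in array 5. It was 1040 in array 3, 2520 in array 2, 807 in array 7 and 717 in array 8. Most of the sum in these arrays came from Hba-a1 alone, with 881, 2337, 670 and 568 in the same order. Over the day-5 arrays Slc4a1 stayed between 31.0 and 53.5 and Alas2 between 54.75 and 83.4. The part of erythroid RNA in the spread between day-5 arrays was not tested. Day-40 arrays lay between 0.01 and 0.08 in the median of the module and day-115 arrays between 0.12 and 0.16.

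**Figure D2:**
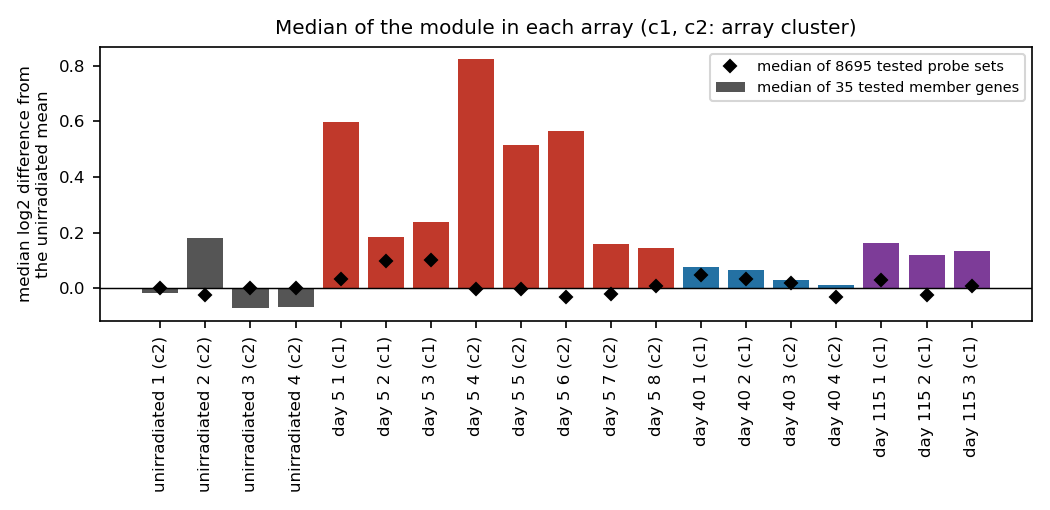
Bars give the median, over the 35 tested genes, of the log2 difference from the unirradiated mean in each array. Diamonds give the same over all 8695 tested probe sets. Day-5 arrays 1, 4, 5 and 6 reach 0.51 or more, while the diamonds of all arrays lie near 0.

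Among the factors that recognise and license origins, Cdc6 and Gmnn moved and the others did not pass the threshold at day 5. Cdc6, the loader of the MCM ring, had signals of 28.9, 46.2, 31.6 and 31.1 in the 4 unirradiated arrays and of 48.4, 83.3 and 250.4 at day 5 (lowest, median and highest). All 8 day-5 arrays lay above all unirradiated arrays. The difference was 1.08 ± 0.26 log2 (standard error, here and throughout; limma adjusted p = 0.0573), 1.25 ± 0.25 with the cluster term (adjusted p = 0.0112) and 1.32 within array cluster 2. Cdc6 was 23.4, 25.5, 28.1 and 25.4 at day 40 and 27.1, 34.3 and 25.9 at day 115, so both later groups lay wholly below day 5. It fell by 1.35 on the log2 scale from day 5 to day 40 (limma adjusted p = 0.0119; 0.00279 with the cluster term) and fell by 1.24 from day 5 to day 115 (0.009; 0.0358). The fall to day 40 lost its call without day-40 array 4.

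Gmnn, geminin, binds Cdt1 and blocks a repeated round of licensing. Its signal was 58.7, 92.1, 62.8 and 55.0 in unirradiated hosts, and 51.8, 126 and 235 at day 5 in the order lowest, median and highest. Day-5 arrays 2 and 3 lay in or under the unirradiated range, and the groups overlapped. Gmnn differed by 0.78 ± 0.28 log2 on groups alone (limma adjusted p = 0.243) and rose by 1.06 ± 0.23 with the cluster term (adjusted p = 0.0217). At day 40 its signal was 52.8, 51.8, 57.9 and 71.4, and at day 115 it was 56.2, 61.6 and 53.0. From day 5 to day 40, Gmnn fell by 0.83 on the log2 scale with the cluster term (limma adjusted p = 0.0251), with 0.117 on groups alone. The brighter probe set of Cdt1, the licensing partner that geminin binds, passed in no comparison. It averaged 146 ± 27.9 (SD, n = 4) in unirradiated hosts and 207 ± 62.2 at day 5 (n = 8). The other Cdt1 probe set, nearly as bright, was not higher at day 5, with 210 ± 32.9 and 198 ± 38.6 in the same order. Orc6, a subunit of the origin recognition complex, was highest in day-5 array 1 at 268 and ranged from 87.5 to 213 in the other 7 day-5 arrays. Orc2 stayed between 40.7 and 57.9 in all 19 arrays, and Orc1 between 14.1 and 21.6, under the filter.

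In the replicative helicase, Cdc45 rose at day 5 and several MCM subunits were higher at day 115 on groups alone. Cdc45 had signals of 40.9, 43.5, 40.3 and 36.8 in unirradiated hosts and of 45.6, 61.0 and 72.2 at day 5. The groups did not overlap, and the rise was 0.41 ± 0.09 log2 (limma adjusted p = 0.0347), 0.33 with the cluster term (0.0303). Leaving out any of day-5 arrays 1 to 5 or any unirradiated array ended that call. With the cluster term and without day-5 array 4, the difference was 0.28 (limma adjusted p = 0.0548). At day 40 Cdc45 stood at 50.2, 46.5, 43.1 and 37.4, and at day 115 at 44.9, 44.0 and 45.1, a narrow range. It fell from day 5 to day 115 by 0.31 on the log2 scale (limma adjusted p = 0.0444; by 0.44 with the cluster term, 0.00481), although leaving out any 1 of 13 arrays ended the call on groups alone. The fall from day 5 to day 40 was called with the cluster term only, by 0.34 (limma adjusted p = 0.00721, and 0.0811 on groups alone).

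Mcm5, a subunit of the MCM ring, had signals of 88.5, 106, 89.1 and 96.6 in unirradiated hosts, and 138, 227 and 515 at day 5. No day-5 array lay as low as the unirradiated ones, yet the difference of 1.14 ± 0.28 log2 did not pass (limma adjusted p = 0.0627; 0.0736 with the cluster term). Its later signals were 218, 186, 117 and 159 at day 40 and 209, 382 and 192 at day 115. Mcm7 was 94.0, 134, 115 and 118 in unirradiated hosts and 142, 197 and 403 at day 5, again with no overlap, and 0.83 ± 0.21 log2 did not pass (limma adjusted p = 0.0711; 0.74 with the cluster term, 0.0863). It stood at 253, 188, 165 and 192 at day 40 and at 249, 300.4 and 251 at day 115. Thus neither of these probe sets had a later array in the unirradiated range. A dimmer Mcm5 probe set did not show this. It had 91.0 to 106 in unirradiated hosts, 86.8 to 150 at day 5, 78.95 to 114 at day 40 and 102 to 104 at day 115.

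Against unirradiated hosts, day 115 was higher by 1.26 ± 0.35 log2 in Mcm5 (limma adjusted p = 0.0139) and by 1.11 ± 0.26 in Mcm7 (0.00673). The cluster term left 0.80 (limma adjusted p = 0.237) and 0.86 (0.112), so both calls were lost. Mcm2 joined them on groups alone, with 146, 178, 132 and 134 in unirradiated hosts, 153, 194 and 316 at day 5, 262, 173, 146 and 151 at day 40, and 226, 341 and 265 at day 115. Its rise at day 115 was 0.83 ± 0.24 log2 (limma adjusted p = 0.0164, and 0.317 with the cluster term). The calls of Mcm2 and Mcm5 were lost without day-115 array 2, which held their highest day-115 values.

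Mcm3 and Mcm4 stood out in day-5 array 4. Mcm4 reached 780 in day-5 array 4, where the other 7 day-5 arrays ranged from 116 to 339. Its unirradiated signals were 174, 233, 151 and 179, and at day 115 they were 175, 140 and 155. Mcm3 was 742 in day-5 array 4 and 202 to 274 in the other 7. Its second probe set fell from day 5 to day 115 by 1.00 log2 (limma adjusted p = 0.0376; 0.162 with the cluster term), while the brighter one did not pass. Leaving out any day-115 array or day-5 array 5, 7 or 8 ended that call. Mcm6 stayed between 10.8 and 16.6 in all arrays, under the filter, so this probe set gave no reading of it.

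Of the primase and polymerase subunits, those of polymerase delta followed the array cluster more than the day on their brighter probe sets. The dimmer probe set of Pola2 did so too. Pold2, a small subunit of polymerase delta, had signals of 137, 145, 141 and 131 in unirradiated hosts and of 169, 184 and 389 at day 5. Day-5 arrays 1 to 3, in cluster 1, had 356, 373 and 389, and the 5 in cluster 2 ranged from 169 to 188. At day 40, the 2 arrays of cluster 1 had 288 and 269 and the 2 of cluster 2 had 151 and 143. All 3 day-115 arrays lay in cluster 1, at 329, 368 and 357. The rise at day 5 was 0.70 ± 0.24 log2 on groups alone (limma adjusted p = 0.23), 0.34 ± 0.08 with the cluster term (0.0407) and 0.32 within cluster 2. Within either cluster, day 40 was lower than day 5, by 0.40 in cluster 1 and 0.24 in cluster 2, and the cluster-term fit gave a fall of 0.31 (limma adjusted p = 0.0179). Against unirradiated hosts, day 115 was 1.25 ± 0.31 log2 higher (limma adjusted p = 0.00829), and 0.29 with the cluster term (0.167).

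Pold1, the catalytic subunit of polymerase delta, split in a similar way, with 172 to 236 in the cluster-1 arrays of day 5 and 90.9 to 148 in those of cluster 2. Its unirradiated signals were 90.3, 113, 79.5 and 111, its day-40 signals 203, 210, 97.9 and 102, and its day-115 signals 227, 379 and 158. The rise at day 115 was 1.17 ± 0.32 log2 (limma adjusted p = 0.0134), 0.36 with the cluster term (0.419), and it lost its call without day-115 array 2. Its second probe set stayed between 30.9 and 49.1 in all arrays.

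Prim1, the catalytic subunit of primase, was lower after day 5. It had 33.03, 40.0, 26.6 and 31.2 in unirradiated hosts, 23.4, 44.5 and 104 at day 5, 19.9, 22.2, 24.8 and 30.4 at day 40, and 24.2, 22.1 and 20.9 at day 115. The day-5 range covered most arrays of the other groups. Prim1 fell from day 5 to day 115 by 0.77 on the log2 scale (limma adjusted p = 0.0471; 0.232 with the cluster term), and leaving out any 1 of 15 arrays ended that call. To day 40 it fell by 0.62 with the cluster term (limma adjusted p = 0.026; 0.139 on groups alone). Pola1, the catalytic subunit of polymerase alpha, was 213 in day-5 array 4, and 34.8 to 109 in the other 7. Neither Pola1 nor Prim2, the large primase subunit with 32.3 to 86.1 over all arrays, passed in any comparison. For Pola2 the brighter probe set ranged from 110 to 191 and passed nowhere, while the other was 0.78 log2 higher at day 115 than in unirradiated hosts (limma adjusted p = 0.0324; 0.973 with the cluster term). Leaving out any 1 array of either group ended that call. This dimmer probe set split by cluster at day 5, with 153 to 185 in cluster 1 and 76.7 to 100.4 in cluster 2. At day 40 it had 148 and 135 in cluster 1 and 90.05 and 79.7 in cluster 2.

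Around the sliding clamp, Pclaf and Pcna were lower at day 115 than at day 5 in both fits. Pclaf binds PCNA and is abundant in cycling cells. Its signal was 39.2, 70.4, 40.3 and 41.0 in unirradiated hosts and 43.8, 206 and 547 at day 5. Of the 8 day-5 arrays, 6 exceeded every unirradiated array, and day-5 arrays 2 and 3 had 43.8 and 69.7. Pclaf fell to 21.5, 22.1, 33.8 and 23.1 at day 40 and to 19.2, 23.9 and 20.3 at day 115, where all 7 arrays lay below all unirradiated ones. The difference at day 5 was 1.75 ± 0.44 log2 (limma adjusted p = 0.0714), 2.18 ± 0.36 with the cluster term (0.00312) and 2.37 within cluster 2. The drop from day 5 to day 40 was -2.36 ± 0.44 (limma adjusted p = 0.0102; -2.21 with the cluster term, 0.000794), with -1.44 within cluster 1 and -2.87 within cluster 2. To day 115 it was -2.50 ± 0.49 (limma adjusted p = 0.00346; -1.78 with the cluster term, 0.0115). The call to day 40 was lost without day-40 array 4. The lower later levels did not pass against unirradiated hosts. Another 2 Pclaf probe sets stayed between 10.9 and 22.4, under the filter.

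Pcna, the clamp itself, had its highest signals at day 5. Unirradiated hosts had 685, 938, 644 and 619, and day 5 had 522, 1062 and 1517 as lowest, median and highest. The 5 day-5 arrays of cluster 2 ranged from 1033 to 1517 and the 3 of cluster 1 from 522 to 932, and day-5 arrays 2 and 3 lay below every unirradiated array. The difference at day 5 was 0.44 ± 0.30 log2 and did not pass (limma adjusted p = 0.502; 0.70 with the cluster term, 0.224). Day 40 had 226, 561, 500.3 and 466, and day 115 had 336, 145 and 331. Every day-40 and day-115 array lay below every unirradiated array. Against unirradiated hosts, day 115 fell by 1.43 on the log2 scale (± 0.37; limma adjusted p = 0.0107), by 0.73 with the cluster term (0.256), and the call was lost without day-115 array 2. From day 5 to day 115 it fell by 1.87 (limma adjusted p = 0.00182; -1.43 with the cluster term, 0.00503). Within cluster 1 alone that last difference was -1.33. To day 40 the difference was -1.19 (limma adjusted p = 0.0555), and -1.10 with the cluster term (0.00882).

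**Figure D3:**
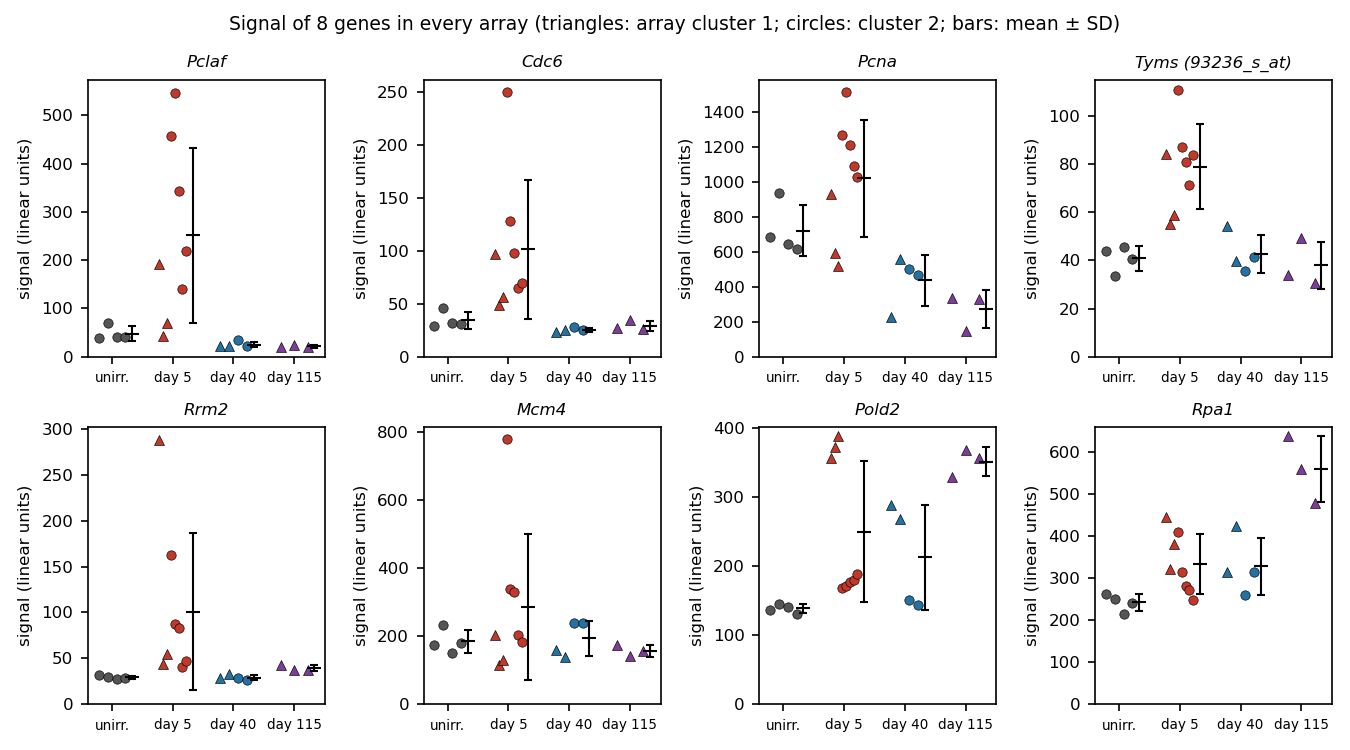
Signal, on a linear scale from 0, of Pclaf, Cdc6, Pcna, Tyms (its brighter probe set), Rrm2, Mcm4, Pold2 and Rpa1 in every array. Triangles mark array cluster 1, circles cluster 2, and bars the mean ± SD of a group. Pclaf spans 43.8 to 547 at day 5 and stays at or under 33.8 later, and Pold2 separates by cluster within day 5 and within day 40.

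Rfc2, a subunit of replication factor C, had 229, 269, 213 and 196 in unirradiated hosts, 252, 307 and 341 at day 5, 423, 292, 220 and 230.4 at day 40, and 363, 416 and 356 at day 115. The 3 day-115 arrays exceeded the unirradiated ones, by 0.71 ± 0.19 log2 (limma adjusted p = 0.0127; 0.256 with the cluster term). Rfc1, the large subunit with 51.6 to 110 over all arrays, and Rfc4 passed in no comparison. Rfc4 had 32.4, 61.5 and 102 at day 5 and 23.2 to 56.3 in unirradiated hosts.

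The 3 subunits of replication protein A, which coats single-stranded DNA, did not move together. Rpa1, the large subunit, had 263, 251, 214 and 241 in unirradiated hosts, 247, 318 and 446 at day 5, 314, 423, 261 and 315 at day 40, and 638, 561 and 480 at day 115. All day-115 arrays lay above all other 16 arrays. Rpa1 was 1.15 ± 0.20 log2 higher at day 115 than in unirradiated hosts (limma adjusted p = 0.00135; 0.83 with the cluster term, 0.031). It was 0.73 ± 0.18 higher than at day 5 (limma adjusted p = 0.012; 0.53 with the cluster term, 0.0407), and that call was lost on groups alone without day-115 array 1. Rpa3, the small subunit, had 84.0, 110, 58.0 and 66.1 in unirradiated hosts, 51.3, 81.1 and 155 at day 5, 34.4, 48.6, 62.4 and 82.9 at day 40, and 37.5, 32.4 and 35.6 at day 115. The 3 day-115 arrays lay below every unirradiated and every day-5 array. It fell by 0.87 against unirradiated hosts (limma adjusted p = 0.0368) and by 1.02 against day 5 (0.0159). With the cluster term the values were -0.14 (limma adjusted p = 0.779) and -0.57 (0.0618). The first of these calls was lost without unirradiated array 1, 2 or 4 and without any of the day-115 arrays, and the second without day-115 array 2. Rpa2, the middle subunit, ranged from 118 to 203 over all arrays and passed in no comparison.

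Lig1, the ligase that seals Okazaki fragments, led the genes of fragment joining, chromatin and repair at day 5. It had 87.0, 102, 87.2 and 97.8 in unirradiated hosts and 110, 144 and 256 at day 5, with no overlap. The difference was 0.61 ± 0.15 log2 (limma adjusted p = 0.0681), and 0.67 ± 0.15 with the cluster term (0.029). At day 40 Lig1 was back at 97.9, 98.1, 101 and 94.2, below all day-5 arrays, a fall of 0.53 with the cluster term (limma adjusted p = 0.0288; 0.0755 on groups alone). Day 115 had 128, 123 and 93.5. A dimmer Lig1 probe set had 38.8 ± 6.44 at day 5 (SD, n = 8) and 47.2 ± 4.21 in unirradiated hosts (n = 4). It was 0.50 log2 lower at day 115 than in unirradiated hosts (limma adjusted p = 0.011; 0.29 with the cluster term), a call lost without day-115 array 2.

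Chaf1b, a subunit of the chromatin assembly factor that deposits histones on new DNA, followed the array cluster. Day-5 arrays of cluster 1 had 115 to 129 and those of cluster 2 had 54.9 to 71.5. Its unirradiated signals were 52.7, 49.4, 48.5 and 56.8, day 40 had 135, 73.8, 41.6 and 50.6, and day 115 had 114, 100.3 and 146. The rise at day 115 was 0.99 ± 0.29 log2 (limma adjusted p = 0.0197; 0.14 with the cluster term, 0.676), and it was lost without day-115 array 3. Chaf1a, its partner, stayed between 64.7 and 101 in all arrays. Nasp, a histone chaperone with 23.1 to 60.1 over all arrays, and Brca1, a repair factor, passed in no comparison, and Brca1 was 96.1 in day-5 array 4 against 17.7 to 52.3 in the other 7. Fen1, the flap nuclease, was 57.9 in day-5 array 4 and 16.4 to 31.1 in the other 18 arrays, under the filter on the mean. Ung, uracil glycosylase, was called on its dimmer probe set only. Its brighter probe set passed nowhere, while the other fell at day 115 by 1.08 against unirradiated hosts (limma adjusted p = 0.0108; 0.348 with the cluster term) and fell by 1.09 against day 5 (0.00822; 0.0146). The brighter had 239 to 319 in unirradiated hosts and 183, 435 and 151 at day 115, with the 435 in array 2. The dimmer had 186 to 248 and 101, 81.6 and 99.0 in the same order.

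Among the enzymes of deoxynucleotide synthesis, Tyms separated day 5 from every other array. Both of its probe sets can also bind the pseudogene transcript. The brighter had 43.9, 33.7, 45.4 and 40.8 in unirradiated hosts, 55.2, 82.3 and 111 at day 5, 54.1, 39.7, 35.6 and 41.2 at day 40, and 33.8, 49.3 and 30.8 at day 115. All 8 day-5 arrays lay above all 11 others. The dimmer had 23.3, 24.0, 21.5 and 19.5 in unirradiated hosts, 30.7, 41.2 and 56.7 at day 5, 27.0, 22.1, 21.5 and 20.1 at day 40, and 22.6, 20.7 and 22.5 at day 115, with the same separation. Thymidylate synthase makes the thymidine nucleotide that only DNA uses.

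The brighter and the dimmer Tyms probe set rose at day 5 by 0.72 ± 0.13 and 0.61 ± 0.10 log2 (limma adjusted p = 0.0125 and 0.00784), and by 0.77 and 0.59 with the cluster term (0.00466 and 0.00552). They fell to day 40 by 0.68 and 0.59 (limma adjusted p = 0.013 and 0.00618) and to day 115 by 0.81 and 0.61 (0.00221 and 0.00231). All these falls passed with the cluster term too. Leaving out unirradiated array 4 ended the day-5 call of both, and unirradiated array 2 that of the brighter. The fall to day 40 of the brighter was lost without day-40 array 3 or 4.

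Rrm2, the small subunit of ribonucleotide reductase, had 31.1, 29.4, 27.6 and 28.2 in unirradiated hosts and 40.2, 68.7 and 289 at day 5. Array 1 gave the 289 and array 4 had 163, so the spread was wide, although no day-5 array reached down to an unirradiated one. The difference of 1.12 ± 0.33 log2 did not pass (limma adjusted p = 0.141; 0.161 with the cluster term). Day 40 had 28.1, 32.2, 28.2 and 26.4, and the fall of 1.15 with the cluster term passed (limma adjusted p = 0.0335; 0.0953 on groups alone). Day 115 had 42.8, 37.5 and 36.6. Rrm1, the large subunit, was 530 in day-5 array 4 and 124 to 211 in the other 7, and passed in no comparison.

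Tk1, the thymidine kinase of dividing cells, had 173, 150, 171 and 172 in unirradiated hosts, 170, 241 and 328 at day 5, 210, 182, 174 and 150 at day 40, and 235, 159 and 206 at day 115. The groups overlapped. Tk1 fell from day 5 to day 40 by 0.42 with the cluster term (limma adjusted p = 0.0412; 0.237 on groups alone), and by 0.39 without day-5 array 4 (0.0502). A dimmer Tk1 probe set had its highest mean at day 115, 63.2 ± 16.1 (SD, n = 3), against 56.3 ± 11.9 at day 5 (n = 8). At day 5 it had 64.6 to 75.8 in cluster 1 and 44.8 to 51.8 in cluster 2. Dut, which removes dUTP, stayed between 40.4 and 53.1 in all arrays.

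**Figure D4:**
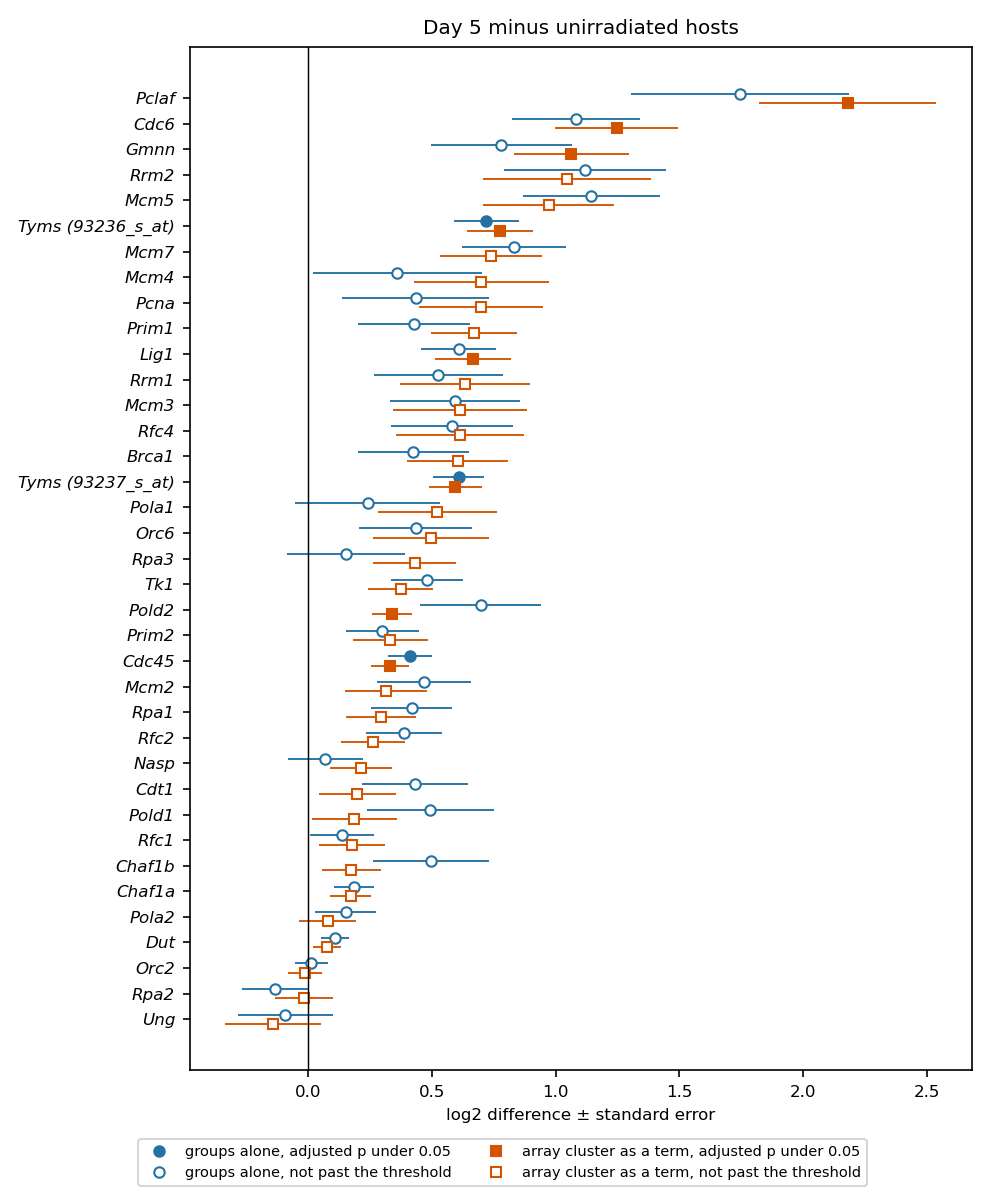
Day 5 minus unirradiated hosts for the 35 tested genes and both Tyms probe sets, as log2 difference ± standard error, from the fit on groups alone (circles) and with the array cluster as a term (squares). Filled symbols have an adjusted p under 0.05. Cdc45 and the Tyms probe sets are filled in both fits, and Pclaf has the largest difference in both.

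At day 40 the module lay close to the unirradiated level. No gene of 35 passed in either limma fit, and at an unadjusted p under 0.05 there were 4 on groups alone (Mcm5, Mcm7 and Rpa1 higher, Pcna lower) and 1 with the cluster term. At a limma adjusted p under 0.05, 1.15% of all probe sets rose and 0.334% fell on groups alone, and 1.79% and 0.426% with the cluster term. Their share at the unadjusted threshold was not counted. The median log2 difference of the 35 genes was 0.06, against 0.03 over all probe sets. From day 5 to day 40, Cdc6 and Pclaf fell on groups alone and no gene rose, where 0.955% of all probe sets rose and 0.311% fell. With the cluster term 10 genes fell (Cdc45, Cdc6, Gmnn, Lig1, Pclaf, Pcna, Pold2, Prim1, Rrm2 and Tk1) and none rose, against 2.3% of probe sets that fell and 5.13% that rose. These are 28.6% of the module, and its median was -0.32 in either fit. Without day-40 array 4 no gene was called on groups alone, and without day-5 array 2 or 3 there were 4. Comparisons against the day-5 group share its arrays with the comparison of day 5 against unirradiated hosts.

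Day 115 differed from unirradiated hosts in 10 genes on groups alone and in 1 with the cluster term. Mcm2, Mcm5, Mcm7, Pold1, Pold2, Rfc2, Rpa1 and Chaf1b rose and Pcna and Rpa3 fell on groups alone, 8 and 2 of 35. These are 22.9% and 5.71% of the module, where 15.1% of all probe sets rose and 12.8% fell. Leaving out 1 array at a time gave 6 to 10 genes, 6 of them without day-115 array 2. With the cluster term only Rpa1 rose and none fell, against 3.15% and 1.27%. The B cell sum of every day-115 array, 2230 or more, lay above that of every unirradiated array, 1060 or less, and 2 of 7 tested B cell markers rose on groups alone and 1 with the cluster term. Plasma cell markers, 5 of 7 with a probe set, summed to 167 to 185 in unirradiated hosts and 196 to 282 at day 115, and 1 of 4 tested rose in both fits. NK cell markers, 2 of 5 with a probe set, summed to 132 to 164 and 82.3 to 131, and the 1 tested fell on groups alone. Of 4 erythroid markers, 1 rose on groups alone. The part of these cells in the differences was not tested.

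From day 5 to day 115, Rpa1 rose and Cdc45, Cdc6, Pclaf, Pcna, Prim1 and Rpa3 fell on groups alone, where 8.22% of probe sets rose and 5.6% fell. Leaving out 1 array at a time gave 4 to 8 genes, with 4 without day-115 array 1. The cluster term kept 5 of these 7 calls (Cdc45, Cdc6, Pclaf, Pcna and Rpa1) and added none, against 7.21% and 7.03%. In the same comparison 2 B cell markers and 1 plasma cell marker rose in both fits and 1 NK cell marker fell on groups alone, and their part was not tested. No gene passed between day 40 and day 115 in either limma fit. There 0.092% of probe sets rose and 0% fell on groups alone, and 0.127% and 0.069% with the cluster term. At an unadjusted p under 0.05, 6 genes were higher at day 115 on groups alone (Chaf1b, Mcm2, Pold1, Pold2, Rfc2 and Rpa1) and 3 with the cluster term. No share of all probe sets was counted at that unadjusted threshold.

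**Figure D5:**
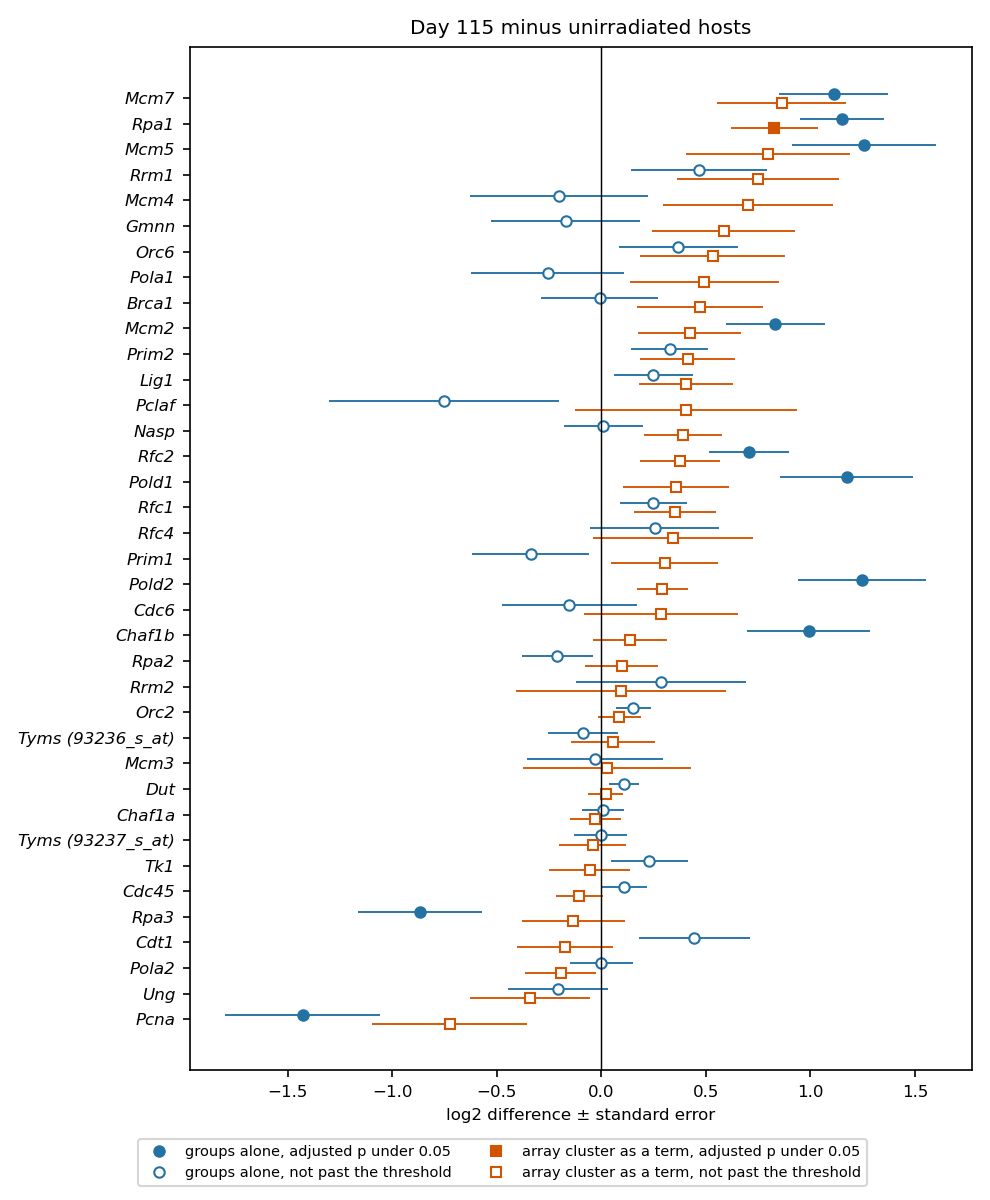
Day 115 minus unirradiated hosts for the same probe sets, as log2 difference ± standard error, from both fits. Of the 10 filled circles, only that of Rpa1 has a filled square, and the squares of Pold2 and Chaf1b lie near 0.29 and 0.14 where their circles lie at 1.25 and 0.99.

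Within day 5, some genes of the module separated by array cluster. In 5 of 35 genes (Cdt1, Chaf1b, Pold1, Pold2 and Ung) every cluster-1 array was higher than every cluster-2 array, and in 4 (Pcna, Prim1, Rpa2 and Rpa3) every one was lower. These are 14.3% and 11.4% of the module, and over all tested probe sets the shares were 29.5% and 18.1%. The other 26 genes overlapped between the clusters, Cdc6 and Pclaf among them. These counts rest on the brightest probe set of a gene. The dimmer probe sets of Cdt1 and Pold1 overlapped between the clusters, and that of Ung was lower in every cluster-1 array. Among the genes counted as overlapping, the dimmer probe sets of Pola2 and Tk1 were higher in every cluster-1 array. That of Mcm3 was lower in every one. The B cell sum was 1950, 2310 and 2110 in day-5 arrays 1 to 3, and 1160 to 1350 in arrays 4 to 8. Its part in the separation of Chaf1b, Pold1 and Pold2 was not tested.

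The other genes of the pathway came from 6 lists. These were read without the 40 genes of the module, and no gene of any list passed at day 5 on groups alone. With the cluster term, 4 rose at day 5. These were Cdca7, listed with the origin factors (0.86 ± 0.21 log2, limma adjusted p = 0.0429), E2f8, an E2F repressor (0.61, 0.0444), Slbp, which binds histone mRNA (0.96, 0.0217), and Asf1b, a histone chaperone (0.65, 0.0376). That was 1 of 7 origin factors, 1 of 12 regulators of the G1 to S step and 2 of 18 chromatin and repair genes, together 4.55% of the 88 tested, where 0.978% of all probe sets rose. None of 15 fork factors, 23 genes of deoxynucleotide supply or 13 of purine and pyrimidine synthesis passed. From day 5 to day 40, 13 of the 88 fell and 2 rose with the cluster term (14.8% and 2.27%, where 2.3% of all probe sets fell and 5.13% rose). On groups alone Cdca7 fell and no other gene of the lists passed. Cdca7 fell by 1.05 with the cluster term (limma adjusted p = 0.00382; 0.0119 on groups alone) and Slbp by 0.80 (0.0184; 0.0977). Chek1, the checkpoint kinase, fell by 1.02 with the cluster term (limma adjusted p = 0.024; 0.0994 on groups alone), and Ccna2, cyclin A, by 0.57 (0.0469; 0.11). E2f8, E2f1, Asf1b, Uhrf1, Rfc5, Nme1, Dctpp1 and Uck2 also fell with the cluster term, and Rrm2b and Ctps2 rose.

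By day 115 Slbp stood at 21.9 ± 4.13 (SD, n = 3), against 92.6 ± 43.4 at day 5 (n = 8), a difference of -1.43 log2 on groups alone (limma adjusted p = 0.00391; 0.0131 with the cluster term). Ccna2 stood at 86.5 ± 13.1 against 190 ± 69.3, a difference of -0.96 (limma adjusted p = 0.00387; 0.00733). Tk2, the mitochondrial thymidine kinase, rose from 82.9 ± 28.3 to 204 ± 62.9, by 1.17 (limma adjusted p = 0.00233; 0.00584). In the list of deoxynucleotide supply, 2 genes rose and 3 fell from day 5 to day 115 on groups alone, and 2 and 2 with the cluster term. Over the 6 lists, 5 of 88 rose and 9 fell on groups alone (5.68% and 10.2%, where 8.22% and 5.6% of all probe sets did). With the cluster term 3 rose and 5 fell (3.41% and 5.68%, against 7.21% and 7.03%). Besides those given above, Orc5, Pold4, Guk1 and Ctps2 rose and Topbp1, Cdca7, Pole3, Dck, Nme1 and Rbbp4 fell on groups alone only. Shmt2 fell in both fits. Rrm2b and Pms2 rose and Uck2 and Dhodh fell with the cluster term only. Against unirradiated hosts the list of deoxynucleotide supply had 6 rises and 3 falls among 23 at day 115, where 15.1% of all probe sets rose and 12.8% fell, and none with the cluster term.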

How the data were processed

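The 19 arrays came as 1 deposited table of signal intensity per probe set. The values are linear, and no source used here says how the authors made them. Array medians spanned 0.0876 on the log2 scale after addition of 16, so no further normalisation was applied. Of 12488 probe sets, 66 controls were left out. Probe sets above the 30th percentile of the mean of log2(signal + 16), a signal of 26.1, were tested (8695). Among the 12422 non-control probe sets, 10833 had 1 gene symbol in the platform table, 396 several and 1193 were not listed.

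A linear model of log2(signal + 16) was built with limma 3.58.1 (R 4.3.3), with all 19 arrays in 1 model, the group as the only factor and an intensity trend in the moderated variances. P-values are two-sided and adjusted over all 8695 probe sets with the Benjamini-Hochberg method, with a threshold of 0.05. There were 6 comparisons. The array cluster (average linkage on 1 minus the Pearson correlation) was the main alternative. Other pseudocounts, filters, quantile normalisation, the variance trend, single clusters, single pairs of groups, any probe set of a gene, the replicate number as a block and leaving out each array were the others. Genes past the threshold in either fit are given in every array, or by lowest, median and highest at day 5, the rest by ranges and counts. Of each pathway list, up to 4 genes with the largest differences past the threshold were named in each comparison.

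The members, gene lists and tests were chosen with earlier results of these data known. Protein sequences were not analysed here. The number of arrays limits the precision.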

Additional observations from a re-analysis of the deposited data

Results flagged for a closer look

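In groups of 4 to 10 arrays, an array was set apart when its gap to the nearest of the others was large for the range of its group (Dixon's test at the 95% level). This applied to 13 of 111 combinations of gene and group, and 8 of the 13 were day-5 array 4. The combinations share the same arrays and are not independent, so the count is not set against a chance rate.

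In day-5 array 4, Mcm4 had a signal of 780 and Mcm3 of 742, where the other 7 day-5 arrays did not exceed 339 and 274. Rrm1 had 530 there against at most 211, Lig1 256 against 172, and Cdc6 250.4 against 129. Pola1 had 213 against at most 109, Rfc1 110.3 against 76.6, and Brca1 96.1 against 52.3. The erythroid, B cell and myeloid marker sums of this array were 404, 1170 and 364, each inside the range of the other day-5 arrays. Its sum of CD8 T cell identity genes, 8060, was the lowest of day 5, and its NK cell marker sum, 153, was the highest, where the other 7 arrays had 105 to 151. The cause of its higher replication transcripts was not tested.

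In unirradiated array 2, Pclaf had 70.4 and Cdc6 46.2, where the other 3 arrays had at most 41.0 and 31.6. Tk1 was lowest there, at 149.6 against 171 or more. In day-40 array 3, Pclaf had 33.8 against at most 23.1, and in day-40 array 1, Orc2 had 57.9 against at most 46.6.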

How the results depend on the processing

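On groups alone, the count of genes called was 1 at day 5, 0 at day 40 and 10 at day 115 against unirradiated hosts, 2 from day 5 to day 40, 7 from day 5 to day 115 and 0 from day 40 to day 115. With the array cluster as a term, the first 5 of these counts were 6, 0, 1, 10 and 5, and an alternative chosen after seeing the data, the same term without day-5 array 4, gave 4 at day 5, 1 at day 115 and 9 from day 5 to day 40. Within array cluster 2, 5 genes were called at day 5 and 5 from day 5 to day 40, and within cluster 1 none was called from day 5 to day 40 (0) or to day 115 (0). For day 5 against unirradiated hosts, a pseudocount of 1 gave 2 and a filter at the 50th percentile 0. Fits of only the 2 groups compared gave 0 at day 5, 1 at day 40 against unirradiated hosts and 0 from day 5 to day 40. The deviations of same-numbered arrays correlated with r from -0.667 to 0.764 (21 pairs, 8 of them above 0.1). Such a mixed set of values cannot decide whether the number marks a pairing. With the replicate block, the counts were 14 at day 5, 1 from day 5 to day 40 and 1 from day 5 to day 115. The share of all probe sets called was counted only for the fits on groups alone and with the cluster term. The counts of the other alternatives therefore have no share beside them. Leaving out 1 array at a time gave 0 to 5 at day 5, 0 to 0 at day 40, 6 to 10 at day 115, 0 to 4 from day 5 to day 40, 4 to 8 from day 5 to day 115 and 0 to 0 from day 40 to day 115. Among module genes called in either fit, none changed direction while past the threshold under any alternative run. Genes of the pathway lists were compared between the fit on groups alone and the fit with the cluster term only. There Rbbp7 differed by -2.21 at day 115 from unirradiated hosts on groups alone, where it passed, and by 0.02 with the cluster term. Genes near the filter, such as Pclaf after day 5, have differences that the pseudocount compresses.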

Other observations

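On groups alone, day 115 differed from unirradiated hosts in further genes of the 6 pathway lists. There 13 of 88 rose and 7 fell (14.8% and 7.95%), where 15.1% of all probe sets rose and 12.8% fell. With the array cluster as a term no gene of the lists passed, against 3.15% and 1.27%. In nucleotide supply, Tk2, the mitochondrial thymidine kinase, stood at 204 ± 62.9 (SD, n = 3) against 73.4 ± 14.6 in unirradiated hosts (n = 4), higher by 1.28 ± 0.24 log2 (limma adjusted p = 0.00206; 0.0628 with the cluster term). Guk1, guanylate kinase, stood at 320 ± 96.9 against 139 ± 44.3, higher by 1.11 (limma adjusted p = 0.0105; 0.297). Dguok, the mitochondrial deoxyguanosine kinase, stood at 671 ± 100 against 332 ± 33, higher by 0.98 (limma adjusted p = 0.0411; 0.751). Dck, deoxycytidine kinase, stood at 180 ± 44.6 against 357 ± 18, with a difference of -0.96 (limma adjusted p = 0.0385; 0.718). Among the partners of the cell cycle switch, Rbl1, a relative of the retinoblastoma protein, stood at 162 ± 16.6 against 434 ± 67.3, with a difference of -1.33 (limma adjusted p = 0.0265; 0.779). Cdc25a, a phosphatase that activates cyclin-dependent kinases, stood at 106 ± 30 against 206 ± 44.2, with a difference of -0.88 (limma adjusted p = 0.0301; 0.795). Rbbp7, a histone-binding protein, differed by -2.21 (limma adjusted p = 0.032), and by 0.02 with the cluster term (0.973).

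Among origin factors, Orc5, a subunit of the origin recognition complex, was higher by 0.76 (limma adjusted p = 0.0053; 0.139 with the cluster term). Topbp1, which helps fire origins, differed by -0.82 (limma adjusted p = 0.0377; 0.747). Among fork factors, Pold4, a small subunit of polymerase delta, was higher by 0.92 (limma adjusted p = 0.0179; 0.567). Rnaseh2a was higher by 0.72 (0.0103; 0.316 in limma) and Ctc1 by 0.33 (0.0496; 0.865). In nucleotide synthesis Ctps2, a CTP synthase, was higher by 0.61 (limma adjusted p = 0.024; 0.387), Cad by 0.60 (0.0428) and Impdh1 by 0.34 (0.026; 0.316).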
